A study of Homo sapiens with 3 samples.

Results

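Genes of cholesterol and fatty acid synthesis were measured in U2OS cells, a human osteosarcoma line, after retroviral transduction with the histone methyltransferase Set8b. The set comprises 31 listed genes. A gene was counted as measured if at least 1 probe set, the group of oligonucleotides that reads a transcript on an Affymetrix array, carried that gene's symbol and no other. By this rule 27 of the 31 genes were measured, out of 19775 genes on the arrays. They make up a sterol arm of 17 genes, a fatty acid arm of 6 genes, and 4 genes of regulation and sterol transport. CYP51A1 and FADS1 had only probe sets that carry a second symbol, and for FDFT1 and ACSL3 no probe set was matched, so these 4 were not analysed here.

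The cells received stable Set8b (labelled Set8_deltaPIP2, a mutant that escapes destruction through the ligase CRL4-Cdt2), wild-type Set8b (Wt-Set8b) or the empty pMSCV-vector. Set8 puts 1 methyl group on lysine 20 of histone H4. All cells were cultured in DMEM with fetal bovine serum, carried a retrovirus and were harvested 5 days after transduction. There was 1 array for each construct. The labels name no separate cultures, no selection of transduced cells and no promoter beyond the pMSCV name. No difference below therefore has a replicate check, and none has a p-value.

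Sterols and fatty acids are both built from cytosolic acetyl-CoA. The sterol arm joins acetyl-CoA units into mevalonate, mevalonate into farnesyl diphosphate and squalene, and closes squalene into lanosterol, which is trimmed to cholesterol. The fatty acid arm carboxylates acetyl-CoA to malonyl-CoA, builds palmitate, and then lengthens and desaturates it. Genes of both arms are targets of the SREBP transcription factors, which stay bound in the endoplasmic reticulum while sterols are plentiful and move to the nucleus after cleavage when sterols run low. SREBP-2, from SREBF2, acts mainly on sterol genes and SREBP-1, from SREBF1, mainly on fatty acid genes, with overlap between them. NF-Y, which binds the CCAAT box, is a known partner of SREBP at many of these promoters.

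Promoter windows of 300 bases, 250 before and 50 after the annotated start, were taken from RefSeq on GRCh38.p14 for 27 of the 31 listed genes. ACAT2, FASN, FDFT1 and SQLE were not matched. Searched on both strands, CCAAT occurred in a window of 21 of these 27 genes (77.8%), against 39.7% of 27305 genes with a window. It was present for 13 of 16 sterol genes, 5 of 7 fatty acid genes and 3 of 4 genes of regulation and transport. The SREBP-site form TCACNCCAC, which does not overlap CCAAT, was found for 1 of the 27 genes, SREBF2, and for 1.39% of all genes. SREBP sites vary in sequence, and the search found exact letters only. Shown here are the windows of 4 genes that the results turn on. HMGCS1 was a sterol enzyme with higher signal and EBP one with lower signal on the stable Set8b array, and SREBF1 and SREBF2 encode the SREBP factors. Capitals mark CCAAT, which reads ATTGG on the opposite strand, and in SREBF2 also the SREBP-site form. The windows lie at chr5:43313363-43313662 on the minus strand (HMGCS1), chrX:48521558-48521857 on the plus strand (EBP), chr17:17836937-17837236 on the minus strand (SREBF1) and chr22:41832855-41833154 on the plus strand (SREBF2), and each sequence is given in the direction of the gene.
HMGCS1: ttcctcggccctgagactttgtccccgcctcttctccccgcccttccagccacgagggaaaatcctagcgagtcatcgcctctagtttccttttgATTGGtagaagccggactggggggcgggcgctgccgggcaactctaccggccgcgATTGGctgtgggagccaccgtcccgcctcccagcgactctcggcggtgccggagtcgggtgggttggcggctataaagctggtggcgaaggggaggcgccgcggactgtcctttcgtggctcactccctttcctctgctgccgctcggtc
EBP: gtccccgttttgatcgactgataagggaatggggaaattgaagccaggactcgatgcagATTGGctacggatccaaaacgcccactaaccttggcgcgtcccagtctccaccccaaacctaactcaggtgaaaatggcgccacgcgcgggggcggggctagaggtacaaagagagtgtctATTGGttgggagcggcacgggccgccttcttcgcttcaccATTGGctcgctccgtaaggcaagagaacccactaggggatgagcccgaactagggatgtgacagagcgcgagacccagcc
SREBF1: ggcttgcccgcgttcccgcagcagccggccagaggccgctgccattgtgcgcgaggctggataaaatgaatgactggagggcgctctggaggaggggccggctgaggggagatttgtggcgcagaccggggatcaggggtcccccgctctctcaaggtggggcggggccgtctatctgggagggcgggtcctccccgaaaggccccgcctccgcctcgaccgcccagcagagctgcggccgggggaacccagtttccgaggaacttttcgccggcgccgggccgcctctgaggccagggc
SREBF2: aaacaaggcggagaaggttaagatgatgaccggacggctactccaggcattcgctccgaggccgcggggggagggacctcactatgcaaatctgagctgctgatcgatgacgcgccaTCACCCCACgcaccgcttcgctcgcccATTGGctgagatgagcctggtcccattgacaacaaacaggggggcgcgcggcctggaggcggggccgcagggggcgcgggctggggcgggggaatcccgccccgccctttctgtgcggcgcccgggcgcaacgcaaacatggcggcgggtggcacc
The HMGCS1 window holds 2 CCAAT boxes, the EBP window 3 and the SREBF2 window 1. The SREBF1 window has neither motif. A second annotated HMGCS1 start gives a window with 0 CCAAT boxes. Among the measured genes, the 20 with a CCAAT box had a median log2 difference of -0.17 between stable Set8b and vector, with a range of -0.94 to 0.52. The 4 without one, AACS, PMVK, ELOVL6 and SREBF1, had a median of -0.55 and ranged from -1.37 to 0.61. With the box 7 genes lay above and 13 below 0, and without it 1 above and 3 below. Genes on both sides of 0 were thus found in both groups, and 4 genes are few for a comparison.

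Values are signals after quantile normalization of the 3 arrays, raised to a floor of 7.7. The brightest probe set stood for each gene, and its signal cannot be set against that of another gene. A filter at a mean signal of 51.4 left 11783 of the 19775 genes, and 26 of the 27 measured synthesis genes passed it. MVD did not. The SD between probe sets of the same gene over 5357 genes was 0.39 log2 between stable Set8b and vector, 0.42 between the forms of Set8b and 0.36 between wild-type Set8b and vector. It says nothing of how separate cultures vary, and having 3 arrays limits precision throughout.

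The arrays had median intensities between 38.6 and 42.8 as deposited. Hybridisation spike-ins on the stable Set8b array had a median ratio of 0.796 to the vector array, and the poly-A spike-ins had 0.467 for stable and 0.441 for wild-type Set8b over vector. The ratio of the 3' to the 5' actin probe set, a sign of RNA integrity, was 7.33 with stable Set8b, 7.56 with wild-type Set8b and 7.995 with vector. The same ratio for GAPDH was 1.02 with stable Set8b, 1.12 with wild-type Set8b and 1.03 with vector. KMT5A, the gene of Set8, was read by 4 probe sets whose log2 differences ranged from -0.76 to 0.90 for stable Set8b over vector and from 0.18 to 1.23 for wild-type Set8b over vector. Their position within the transduced sequence was not analysed here, and they do not serve as a check of the labels. Of 8 measured osteosarcoma and mesenchymal markers, VIM, COL1A1, SPARC, RUNX2 and ALPL passed the filter, while COL1A2, IBSP and SP7 did not. Of the epithelial markers 3 of 5 passed (EPCAM, KRT8 and KRT18), of the leukocyte markers 2 of 4 (CD3D and CD79A, with PTPRC and CD14 below 50 on every array), and of the hepatocyte and adipocyte markers 0 of 4. The summed signal of the 5 epithelial markers was 10677 with stable Set8b, 9699 with wild-type Set8b and 8724 with vector, while EPCAM alone read 169, 425 and 431 in that order of constructs. That of the 4 leukocyte markers was 345 with stable Set8b, 297 with wild-type Set8b and 248 with vector. The part of such markers in the differences below was not tested.

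With stable Set8b, most synthesis genes lay close to their level with vector, and the sterol genes did not move together. The gene that stood out was SREBF1, which was 2.58-fold lower by its brightest probe set. Among the enzymes, HMGCS1 and AACS had higher signals, and PMVK, EBP, ELOVL6, FADS2, ACAT2 and FDPS had lower ones, all by less than 2-fold by the brightest probe set. IDI1, MVK and ACACA lay below the vector level by every probe set past the filter. SCD was lower by its brightest probe set, but its probe sets disagreed in direction. At a 2-fold difference, 0 of the 27 genes were higher and 1 was lower, against 5.23% higher and 4.81% lower among genes past the filter. Over all 19775 genes, dim ones included, the shares were 10.3% and 9.17%. The RNA came from whole cultures, so fewer cells with a transcript and less transcript per cell cannot be told apart.

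**Figure D1:**
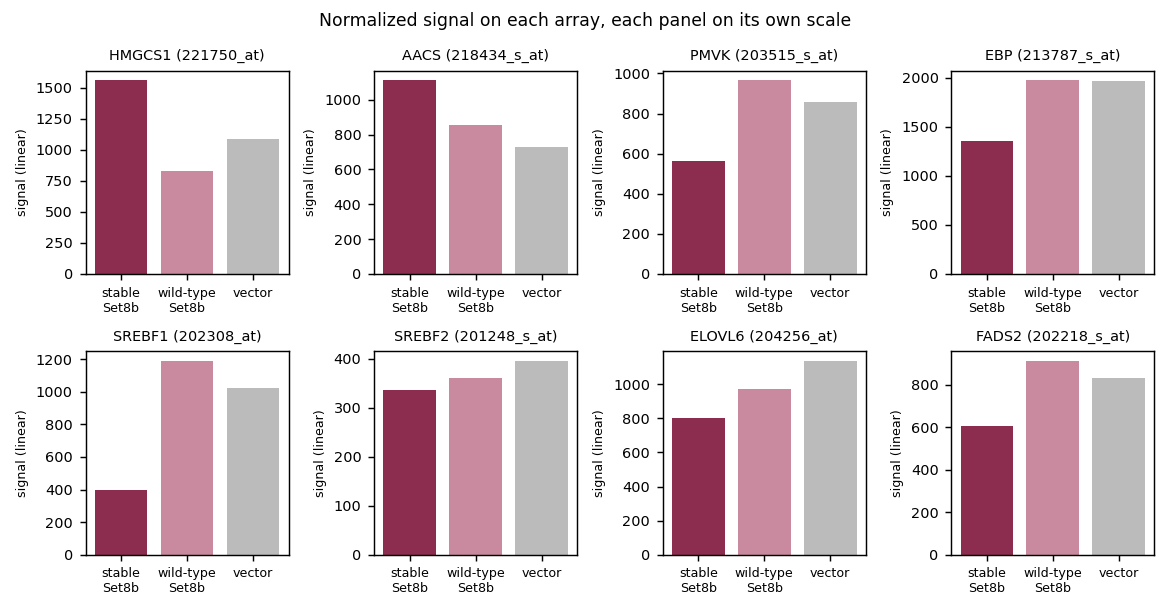
Normalized signal (linear, from 0) of the brightest probe set on the stable Set8b, wild-type Set8b and vector arrays, 1 array each, for 8 genes. Panels have their own scales. SREBF1 read 397 on the stable Set8b array against 1189 and 1026 on the wild-type and vector arrays, while HMGCS1 was highest on the stable Set8b array at 1561.

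Both SREBF genes were read on all 3 arrays. SREBF1 (202308_at) had a signal of 397 with stable Set8b, 1189 with wild-type Set8b and 1026 with vector. The stable Set8b array was therefore the low one, and the other two were close to each other. The log2 difference of stable Set8b was -1.37 against vector and -1.58 against wild-type Set8b, and that of wild-type Set8b against vector was 0.21. Of the 11783 genes past the filter, 217 (1.84%) were at least as low against vector, and 136 (1.15%) against wild-type Set8b. A second SREBF1 probe set, 1558875_at, was too dim to pass the filter and read 79.9 with stable Set8b, 11.1 with wild-type Set8b and 96.0 with vector. It was not low on the stable Set8b array relative to wild-type Set8b, so the lower SREBF1 signal rests on 1 probe set. With the mean of both probe sets, SREBF1 was at -0.82 against vector, short of 2-fold, and at 0.63 against wild-type Set8b, the opposite sign.

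SREBF2 had 337 with stable Set8b, 361 with wild-type Set8b and 395 with vector by its brightest probe set, 201248_s_at, a log2 difference of -0.23 over vector. Another, 201247_at, read 331, 299 and 257 in the same order of constructs, a difference of 0.37. The probe sets of SREBF2 thus lay on both sides of 0, within the spread between probe sets. INSIG1 encodes the protein that holds the SREBP escort in the endoplasmic reticulum and is itself an SREBP target. Its brightest probe set, 201626_at, read 886 with stable Set8b, 1048 with wild-type Set8b and 949.7 with vector (-0.10 over vector). The dimmer 201627_s_at read 124 with stable Set8b, against 267 with wild-type Set8b and 355 with vector, a log2 difference of -1.51 over vector. Another, 201625_s_at, was at -0.61. All 3 were lowest on the stable Set8b array, but the size of the difference depended on the probe set. STARD4, a carrier of sterols between membranes, read 648 with stable Set8b, 708 with wild-type Set8b and 724 with vector, and its log2 difference over vector was -0.16. For all 4 genes of regulation and transport the stable Set8b array was the lowest, as it was for 41.4% of the genes past the filter.

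The sterol arm was divided, with 8 of 17 genes above and 9 below 0 for stable Set8b over vector. Its median log2 difference was -0.07, against -0.01 for all genes past the filter. At 1.5-fold, 1 gene was higher (AACS) and 2 were lower (PMVK and TM7SF2), against 13.6% and 14.0% of genes past the filter (19.1% and 18.0% of all genes).

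The enzymes that supply acetoacetyl-CoA differed in direction. AACS, which activates acetoacetate in the cytosol, read 1111 with stable Set8b, 855 with wild-type Set8b and 726 with vector, 1.53-fold higher with stable Set8b than with vector. ACAT2, the cytosolic thiolase, read 1266 with stable Set8b, 1429 with wild-type Set8b and 1726 with vector (-0.45). Each had 1 probe set.

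HMGCS1, the cytosolic HMG-CoA synthase that starts the mevalonate steps, had 1561 with stable Set8b, against 830.4 with wild-type Set8b and 1087 with vector by its brightest probe set, 221750_at. Its log2 differences for stable Set8b were 0.52 over vector and 0.91 over wild-type Set8b. Its dimmer probe set, 205822_s_at, read 413 with stable Set8b, 164 with wild-type Set8b and 132 with vector, differences of 1.65 and 1.33. HMGCS1 was thus highest on the stable Set8b array by both probe sets, and its position on the wild-type Set8b array relative to vector differed between them (-0.39 and 0.31).

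The other mevalonate enzymes past the filter lay below 0 for stable Set8b over vector. PMVK, the phosphomevalonate kinase, read 565 with stable Set8b, 966 with wild-type Set8b and 859 with vector, a log2 difference of -0.61 by its only probe set. FDPS, which makes farnesyl diphosphate, read 2963 with stable Set8b, against 3737 and 3973 with wild-type Set8b and vector (-0.42). IDI1, the isomerase of isopentenyl diphosphate, had its brightest probe set at -0.34, and its 3 probe sets past the filter ranged from -0.78 to -0.17. MVK, the mevalonate kinase, read 336 with stable Set8b, 407 with wild-type Set8b and 415 with vector (-0.30), and its other probe set past the filter was at -0.12. MVD, which decarboxylates mevalonate diphosphate, read between 15.5 and 32.0 on the 3 arrays, too dim for a direction.

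**Figure D2:**
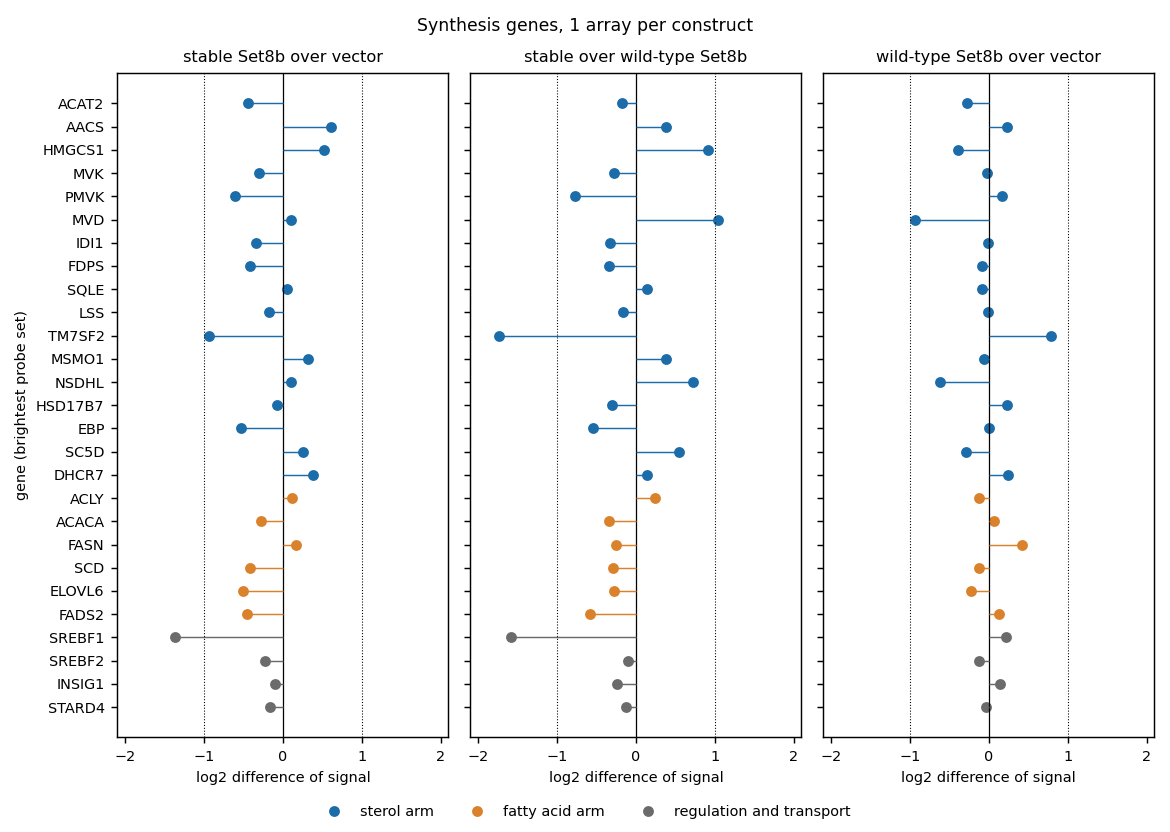
Log2 difference of signal (x axis) of the brightest probe set of each of the 27 genes (y axis), for stable Set8b over vector, stable over wild-type Set8b and wild-type Set8b over vector. Dotted lines mark 2-fold. Sterol genes lie on both sides of 0 in every panel, and SREBF1 lies at -1.37 and -1.58 in the panels of stable Set8b.

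The measured genes of squalene and lanosterol formation, SQLE and LSS, had signals near the vector level by their brightest probe sets. SQLE, the squalene epoxidase and a rate-controlling enzyme, read 1992 with stable Set8b, 1803 with wild-type Set8b and 1916 with vector (0.06), and its probe sets past the filter ranged from -0.03 to 0.37. LSS, which closes the sterol ring, read 4295 with stable Set8b, against 4806 and 4857 with wild-type Set8b and vector (-0.18). Dimmer LSS probe sets were at 0.16 and 0.87, so its direction was not settled.

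Of the 7 measured genes between lanosterol and cholesterol, 4 lay above and 3 below 0. EBP, the sterol isomerase, read 1358 with stable Set8b, 1972 with wild-type Set8b and 1970.0 with vector. Its 3 probe sets past the filter all lay below 0, between -0.86 and -0.54 over vector and between -1.07 and -0.54 over wild-type Set8b. DHCR7, which reduces 7-dehydrocholesterol, was at 0.38 by one probe set and -0.24 by the other. MSMO1, the methyl sterol oxidase, read 4662 with stable Set8b, 3578 with wild-type Set8b and 3735 with vector (0.32).

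SC5D, the sterol desaturase, read 975 with stable Set8b, 667 with wild-type Set8b and 816 with vector (0.26). NSDHL, a dehydrogenase of sterol demethylation, was at 0.10 and 0.37 by its probe sets. HSD17B7, the reductase of the same demethylation, was at -0.07. TM7SF2, a sterol reductase, read 31.3 with stable Set8b, 104 with wild-type Set8b and 60.1 with vector. The stable Set8b signal lay below 50, a level that may be background, and with it set to 50 the difference from vector was -0.27 or lower in place of -0.94.

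In the fatty acid arm, 4 of the 6 measured genes lay below 0 for stable Set8b over vector and 2 above, with a median of -0.35. At 1.5-fold, 0 of the 6 were higher and 0 lower, against 13.6% and 14.0% of genes past the filter, so in 6 genes these counts say little. The median of the sterol arm lay 0.27 above that of the fatty acid arm, and with 1 array a group this difference has no test.

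The 3 genes of acetyl-CoA supply and palmitate synthesis lay between -0.28 and 0.17 over vector by their brightest probe sets. ACLY, which cleaves citrate to the acetyl-CoA that feeds both arms, read 5138 with stable Set8b, 4333 with wild-type Set8b and 4723 with vector (0.12), and its other probe sets were at -0.15 and -0.27. ACACA, the acetyl-CoA carboxylase, read 1114 with stable Set8b, 1415 with wild-type Set8b and 1351 with vector, and its probe sets were at -0.28 and -0.52. FASN, the fatty acid synthase, read 2032 with stable Set8b, 2412 with wild-type Set8b and 1808 with vector (0.17). For FASN the wild-type Set8b array was the high one.

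The 3 measured genes of elongation and desaturation were all below 0 by their brightest probe sets, between -0.50 and -0.41. ELOVL6, which lengthens palmitate, read 803 with stable Set8b, 975 with wild-type Set8b and 1136 with vector, and its 3 probe sets ranged from -0.51 to -0.34 over vector. FADS2, a desaturase of polyunsaturated fatty acids, read 607 with stable Set8b, against 910.3 with wild-type Set8b and 832 with vector (-0.46). SCD, which makes monounsaturated fatty acids, read 2986 with stable Set8b, 3638 with wild-type Set8b and 3975 with vector (-0.41). The 4 probe sets of SCD disagreed, at -0.41 and -0.31 for the brighter pair and 0.38 and 0.42 for the dimmer pair, so its direction depends on the probe set.

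**Figure D3:**
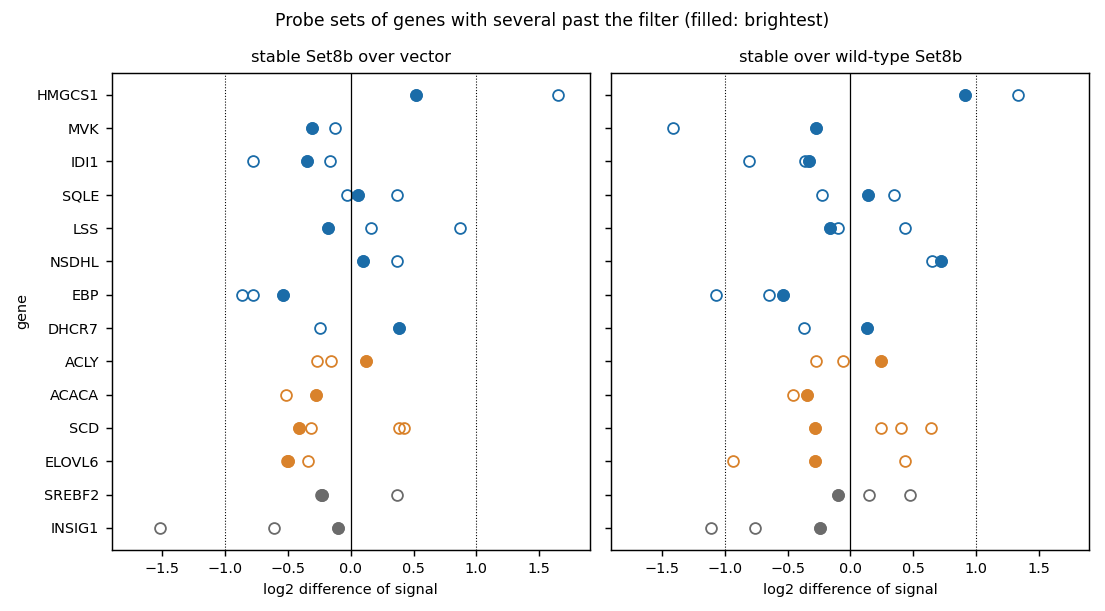
Log2 difference of signal (x axis) of every probe set past the filter, for the 14 genes (y axis) with more than 1, in stable Set8b over vector and stable over wild-type Set8b. Filled points are the brightest probe sets, and blue, orange and grey mark the sterol arm, the fatty acid arm and the regulators. HMGCS1 lies above 0 and EBP and INSIG1 below 0 by every point in both panels, while SCD, DHCR7 and SREBF2 lie on both sides.

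Of the 14 genes with several probe sets past the filter, 8 had every one on one side of 0 for stable Set8b over vector. These were HMGCS1 and NSDHL above 0, and MVK, IDI1, EBP, ACACA, ELOVL6 and INSIG1 below. Between the forms of Set8b, 7 of the 14 had their probe sets on one side, and between wild-type Set8b and vector 2 of the 14. The same share over all 5357 genes with several probe sets past the filter was not analysed here. These counts therefore do not set the 14 genes apart from others.

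Stable against wild-type Set8b compares the form that resists degradation with the form that is degraded. It shares the stable Set8b array with the comparison above. By its brightest probe set, SREBF1 was 2.99-fold lower with stable Set8b. Its dim probe set, 1558875_at, went the other way, with a log2 difference of 2.85. The mean of both was 0.63, so the direction rests on 1 probe set. Of the 27 genes, 1 was at least 2-fold higher and 2 were at least 2-fold lower, against 4.45% and 4.80% of genes past the filter (9.75% and 9.58% of all genes). The higher one was MVD, whose signals lay below 50 on every array and give no fold. The lower ones were SREBF1 and TM7SF2. With its dim side set to 50, TM7SF2 was at -1.06 or lower on the log2 scale.

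At 1.5-fold, 3 were higher (HMGCS1, NSDHL and MVD) and 4 lower (PMVK, TM7SF2, SREBF1 and FADS2), against 12.9% and 14.4% of genes past the filter (18.4% and 18.5% of all genes).

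In the sterol arm the median was -0.16, with 8 genes above and 9 below 0. HMGCS1 was 1.88-fold higher (1561 with stable and 830.4 with wild-type Set8b), and 654 genes (5.55% of those past the filter) were at least as high. Against vector, 1871 genes (15.9%) were at least as high as HMGCS1. NSDHL was 1.65-fold higher, with 957 against 580 by one probe set and 624 against 398 by the other. SC5D was at 0.55 and MSMO1 at 0.38. PMVK was 1.71-fold lower (565 against 966), and FDPS and IDI1 were each at -0.33. In the fatty acid arm 5 of 6 genes lay below 0 by their brightest probe sets, with a median of -0.28. FADS2 was at -0.59 and ACLY was the gene above 0, at 0.25. Dimmer probe sets past the filter were at 0.40, 0.24 and 0.64 for SCD and at -0.93 and 0.43 for ELOVL6. Those of ACLY were at -0.27 and -0.06, and that of ACACA at -0.46. With the mean over all probe sets of a gene the median was -0.14. The difference between the arm medians was 0.12.

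With wild-type Set8b most synthesis genes were near the vector level by their brightest probe sets. At 2-fold, 0 of the 27 were higher and 0 lower, against 1.02% and 0.653% of genes past the filter (7.41% and 6.66% of all genes). The sterol and fatty acid arms both had a median of -0.03, and over all genes past the filter it was 0.01. NSDHL was at -0.62 with wild-type Set8b (580 against 892 with vector), while its other probe set was at -0.28. FASN was at 0.42 (2412 against 1808) and HMGCS1 at -0.39. At 1.5-fold, 1 gene was higher (TM7SF2) and 2 were lower (MVD and NSDHL), against 5.57% and 4.11% of genes past the filter (13.7% and 12.3% of all genes). Some dimmer probe sets past the filter differed more, in both directions. MVK 204056_s_at read 210 with wild-type Set8b, 86.0 with vector and 79.1 with stable Set8b. Its log2 differences were 1.29 for wild-type Set8b over vector and -1.41 for stable over wild-type Set8b. For wild-type Set8b over vector, SCD 200831_s_at was at -0.71 and SQLE 213577_at at 0.59.

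**Figure D4:**
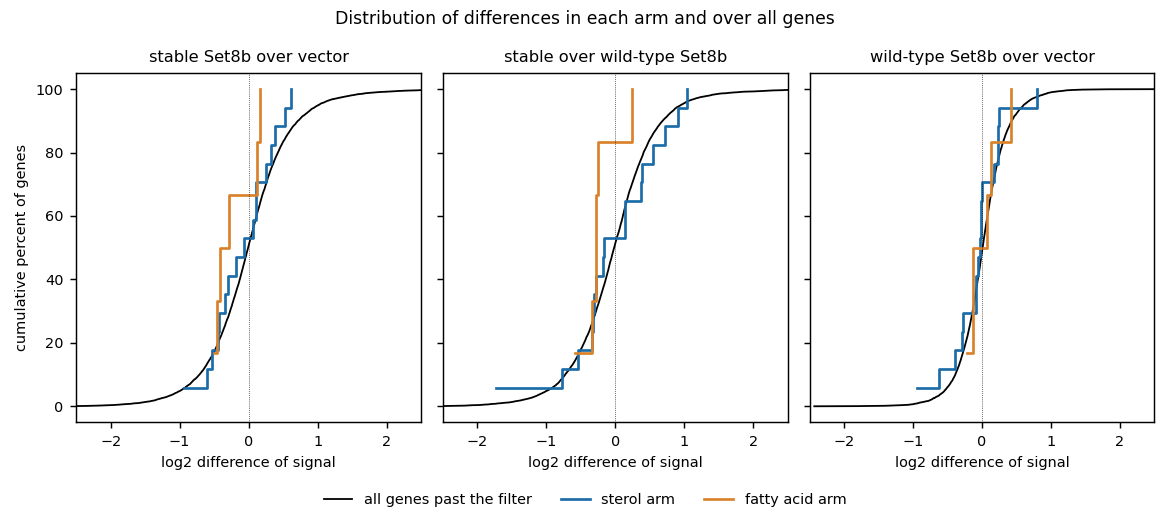
Cumulative percent of genes (y axis) by log2 difference of signal (x axis) for the sterol arm (17 genes, MVD included), the fatty acid arm (6 genes) and the 11783 genes past the filter, in each comparison. For stable Set8b over vector the medians are -0.07 (sterol), -0.35 (fatty acid) and -0.01 (all genes), for stable over wild-type Set8b -0.16, -0.28 and -0.02, and for wild-type Set8b over vector -0.03, -0.03 and 0.01.

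Across the 3 arrays, the stable Set8b array gave the lowest signal for 17 of the 27 genes (63.0%), against 41.4% of genes past the filter. It gave the highest signal for 9 of the 27 (33.3%), against 39.3%. Of the 17 sterol genes, 9 were lowest and 8 highest on that array, and of the 6 fatty acid genes 4 were lowest and 1 was highest. By the brightest probe sets, dim MVD included, no sterol gene was therefore intermediate on the stable Set8b array. For most genes past the filter, too, that array was either the lowest (41.4%) or the highest (39.3%). Some dimmer probe sets of sterol genes past the filter were intermediate on it. SQLE 213577_at read 980 with stable Set8b, 1148 with wild-type Set8b and 760 with vector, and LSS 211019_s_at read 120, 128 and 65.7 in that order.

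Related genes outside the set were taken from 3 lists. Of 21 other enzymes of the same pathways 16 were measured, with a median of 0.08 for stable Set8b over vector, 10 above and 6 below 0. HSD17B12, a reductase of fatty acid elongation, read 1936 with stable Set8b, 979 with wild-type Set8b and 971 with vector, log2 differences of 0.99 and 0.98 for stable Set8b. HACD2, a dehydratase of the same elongation cycle, read 672 with stable Set8b, 955 with wild-type Set8b and 1277 with vector (-0.93 over vector), and its other probe set past the filter was at -0.64. Enzymes of elongation therefore lay on both sides of 0. ACSL4, which activates polyunsaturated fatty acids, read 159 with stable Set8b, 76.3 with wild-type Set8b and 117 with vector. IDI2 read 18.1 with stable Set8b and was at the floor of 7.7 on the other arrays, too dim for a direction.

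Of 10 genes of SREBP processing and enzyme turnover 9 were measured, with a median of -0.06 for stable Set8b over vector. At 1.5-fold, 0 of the 9 were higher and 0 lower against vector, where 13.6% and 14.0% of genes past the filter were. Against wild-type Set8b 0 were higher and 2 lower, ERLIN1 and RNF139, where 12.9% and 14.4% of genes past the filter were. ERLIN1, an endoplasmic reticulum protein that takes part in degrading sterol-regulated proteins, read 1044 with stable Set8b, 1800.4 with wild-type Set8b and 1474 with vector. RNF139, a ubiquitin ligase of that membrane, read 1515 with stable Set8b, 2405 with wild-type Set8b and 2159 with vector. Both were lowest on the stable Set8b array. MBTPS2, a protease that releases SREBP, was at -0.37 for stable Set8b over vector and UBXN8 at -0.31. These 2 genes were lowest on the wild-type Set8b array instead, at -0.46 and -0.54 over vector.

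Of 12 genes of sterol uptake, storage and efflux 10 were measured, with a median below 0.01 in size (-0.0038) and 5 on each side of 0. SOAT1, which esterifies cholesterol for storage, read 632 with stable Set8b, 372 with wild-type Set8b and 403 with vector (0.65 over vector), and its 3 probe sets past the filter lay between 0.27 and 0.65. NPC1, which exports cholesterol from lysosomes, had a brightest probe set at 0.55 and another at -0.05. OSBP, a sterol carrier, was at -0.60 and 0.26 by its probe sets. ABCG1, a sterol exporter, read 158 with stable Set8b, 237 with wild-type Set8b and 157 with vector, so the wild-type Set8b array was the high one.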

How the data were processed

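Total RNA was extracted with Trizol reagent, given a biotin label and put on Affymetrix arrays, per the labels' protocols. The deposited values are linear intensity values, 1 per probe set. They came from software not given in the sources used here. Deposited intensity values have the same trimmed mean of 250.0 on every array (2% trimmed at each end).

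Of 54675 probe sets, 62 controls were left out. Platform annotation gave 1 symbol to 41091, several to 1801 and none to 11721. Numpy 2.4.6 and pandas 2.3.3 (Python 3.11.15), with figures by matplotlib 3.10.9, were used for quantile normalization over the 3 arrays, a floor at the 20th percentile and log2. Quantile normalization removes any overall shift between arrays. The brightest probe set by mean log2 stood for a gene, without a filter, so that each gene is accounted for. The filter kept the 20546 probe sets at or above the median.

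The genes, lists, motifs and thresholds were chosen with earlier results of these data known. All 27 measured genes are named, and up to 4 from each related list with the largest difference in any comparison. Steps were tested on simulated data. Alternatives covered normalization, floor, filter, probe set, arm membership and threshold.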

Additional observations from a re-analysis of the deposited data

How the results depend on the processing

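Each value was recomputed under other scalings, floors, filters, probe set rules, arm memberships and thresholds. Of 159 recomputed arm medians, arm differences and counts, 133 stayed within a set limit and 26 did not. For medians and their differences the limit was the SD between probe sets, scaled down by the square root of gene number. It was 0.095 for the sterol and 0.16 for the fatty acid median of stable Set8b over vector. For counts it was a factor of 1.5. The other floors left every fatty acid median unchanged, so not every setting could move a result. With arrays centred on their medians, the sterol median was -0.18 both for stable and for wild-type Set8b against vector, and the fatty acid median for wild-type Set8b was -0.19. That scaling put the median of all genes past the filter at -0.12 with stable Set8b and -0.13 with wild-type Set8b, each against vector. Without probe sets ending in _x_at or _s_at, the sterol median was 0.028 for stable Set8b over vector and -0.0095 for stable over wild-type Set8b, and the sterol arm lay 0.53 and 0.34 above the fatty acid arm. With the mean over all probe sets, the sterol median for stable Set8b over vector was 0.070, so its sign was not settled.

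At a 1.5-fold threshold, 1 gene was higher and 3 lower for stable Set8b over vector, 3 higher and 4 lower for stable over wild-type Set8b, and 1 higher and 2 lower for wild-type Set8b over vector, out of 27. Among genes past the filter the shares higher and lower were 13.6% and 14.0%, 12.9% and 14.4%, and 5.57% and 4.11% in these comparisons. At 2-fold with the mean over probe sets, stable Set8b over vector had 1 higher (HMGCS1 at 1.08) and 0 lower, stable over wild-type Set8b had 2 higher, and wild-type Set8b over vector had 1 lower. SREBF1 was then at -0.82 for stable Set8b over vector and at 0.63, the opposite sign, for stable over wild-type Set8b, since its dim probe set 1558875_at read 11.1 on the wild-type Set8b array. For stable over wild-type Set8b the count at least 2-fold higher was 0 with values as deposited, with a floor at the 40th percentile, with a floor of 50, with the filter, without _x_at and _s_at probe sets and among the brightest 25%, since its 1 gene is the dim MVD. The count of lower genes was 1 among the brightest 25%, where TM7SF2 is left out. Without _x_at and _s_at probe sets, wild-type Set8b over vector had 1 gene at least 2-fold higher, FADS2 by a probe set that read 60.0 with wild-type Set8b against 29.9 with vector.

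No paired analysis was possible because each construct has 1 array. Signals below about 50 limit MVD, TM7SF2 and IDI2.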

Other observations

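Probe sets that carry 2 symbols were outside the rule for the gene set. The 3 annotated to both FADS1 and MIR1908 read 1165, 1159.9 and 1692 with stable Set8b, 1351, 1599.97 and 2388 with wild-type Set8b, and 1552, 1582 and 2540.1 with vector. All 3 were lowest on the stable Set8b array, with log2 differences over vector between -0.59 and -0.41. FADS2, measured through its own probe set, was at -0.46. The 2 annotated to both CYP51A1 and LRRD1 were at -0.15 and -0.48 over vector, with 1255 and 230.5 with stable Set8b against 1389 and 322 with vector. Which of the 2 named genes such a probe set reads was not tested.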
